A study of Homo sapiens with 60 samples.

Results

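The YAP and TEAD program was followed through 10 genes in A549, a cell line established from a human lung carcinoma. The cells had received vehicle or 1 of several herbal extracts for 24 h. The list of symbols was drawn up with earlier results of these data known and is no unselected set: CCN1, CCN2, ANKRD1, NUAK2, AXL and CRIM1 as targets, AMOTL1, AMOTL2 and LATS2 as targets that feed back on YAP, and YAP1, which encodes the coactivator. All 10 were found among the 60675 gene identifiers of the deposited count table, and all 10 were among the 17826 genes that passed the filter on low counts. Of the 60 libraries, 57 came from cells given 1 of 8 extracts and 3 from cells given vehicle. Yijin-tang and Soshiho-tang were water extracts, and the ethanol extracts were made from Longan Arillus, Zizyphi Semen, Polygalae Radix, Aucklandiae Radix, Schisandrae Fructus and Liriopis seu Ophiopogonis Tuber. Doses were 20, 100 and 500 µg/mL (low, medium and high), except for Polygalae Radix at 15.2, 76 and 380 µg/mL and Aucklandiae Radix at 14.8, 74 and 370 µg/mL. There were 3 libraries per dose, except for Soshiho-tang with 2 (replicates 2 and 3) and for Polygalae Radix and Aucklandiae Radix with 1. The labels give the vehicle as 0.1% DMSO and the design text gives 2%. They state no DMSO content for the single extract libraries. The vehicle libraries carry their own set label (C1). The extracts carry set labels 8 (Yijin-tang, Soshiho-tang), 9 (Schisandrae Fructus, Liriopis seu Ophiopogonis Tuber), 10 (Longan Arillus, Zizyphi Semen) and 11 (Polygalae Radix, Aucklandiae Radix). Against vehicle, set and treatment therefore cannot be told apart, whereas the high and low doses of an extract lie in the same set. Nothing in the labels states whether replicates were grown as separate cultures, and p-values here measure only library-to-library spread, which could be technical.

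In the Hippo pathway, LATS kinases phosphorylate the coactivator YAP and keep it out of the nucleus. Without that phosphorylation YAP enters the nucleus, binds TEAD transcription factors and switches on genes for secreted matrix proteins, growth regulators and its own inhibitors. The pathway responds to cell density, attachment and cytoskeletal tension, and YAP activity is common in cultured carcinoma cells.

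Library totals were 18002661 to 33831747 counts. Levels are CPM, a gene's count relative to its library's total, scaled by TMM factors. Summed epithelial markers (KRT7, KRT8, KRT18, KRT19, CDH1, EPCAM and CLDN4) reached 1317 to 12180 CPM in the extract libraries, against 8400 to 8781 CPM in vehicle. Sums of 10 fibroblast, 8 endothelial, 8 leukocyte and 5 smooth muscle markers were at most 50.2, 6.92, 36.3 and 47.9 CPM in any extract library, against at most 42.8, 5.00, 17.1 and 39.0 CPM in vehicle. Most of each sum in vehicle came from COL1A1 (29.5), ESAM (4.41), CD68 (12.3) and SMTN (35.7 CPM on average). No marker was at 0 in all libraries, but FAP, KDR, EMCN and CD3E were at 0 in vehicle and at most 0.0701 CPM in any library. The part of these marker levels in the results was not tested. Levels fell with gene length in 2 libraries, with slopes of -0.4183 log2 units per doubling of length in replicate 3 of medium-dose Soshiho-tang and -0.4701 in replicate 3 of low-dose Longan Arillus. These libraries held 9.875% and 8.163% mitochondrially encoded mRNA, against 10.97% to 18.83% in all others. Vehicle held 11.46% to 11.76%, and the other libraries of set 10 held 13.87% to 18.83%. The part of this share in the comparisons with vehicle was not tested. Slopes were -0.0903 to 0.0751 in the other libraries. The test fitted the 54 libraries of vehicle and of the 6 replicated extracts (common dispersion 0.0173), and values from the fit of 52 libraries without both (dispersion 0.00244) are given beside it.

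At the low doses 6 of the 10 genes were lower than in vehicle: AMOTL2, CCN1, NUAK2, ANKRD1, CCN2 and AXL. Their mean log2 fold changes over the 6 low doses were -0.27 to -0.55, or -17.3% to -31.8%. In the mean of the 6 low doses, CRIM1 and AMOTL1 did not pass the test in either fit, and YAP1 and LATS2 passed it in the fit of 52 libraries alone. The test was edgeR's quasi-likelihood F test with Benjamini-Hochberg adjustment over all genes, with a call at an adjusted p below 0.05. It called 1.09% of all genes lower in this comparison and 1.14% higher. In the fit of 52 libraries 8 of the 10 genes were called lower, where 9.78% of all genes were lower and 7.03% higher. At the low doses 5 of the 10 genes (CCN1, CCN2, AMOTL2, NUAK2 and AXL) lay below the vehicle range in all 17 libraries, as 2.18% of all genes did. In bulk RNA, fewer cells expressing a gene and less RNA per cell cannot be told apart.

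Among the genes that feed back on YAP, AMOTL2, an angiomotin family protein that binds YAP and holds it at cell junctions, had the largest fall of the 10 (chr3:134355874-134375479, - strand). Its level over the 17 low-dose libraries was 50.8 to 84.8 CPM with a median of 78.3, against 109.6, 113.8 and 115.2 CPM in the vehicle libraries. No low-dose library reached the vehicle range. The log2 fold change was -0.55 ± 0.07 (SE), adjusted p = 7.6e-06, and -0.52 ± 0.04, adjusted p = 1.25e-13, in the fit of 52 libraries. Its low-dose means ± SD were 78.3 ± 1.45 CPM for Yijin-tang, 82.3 ± 1.63 for Soshiho-tang (n = 2), 75.0 ± 4.15 for Liriopis seu Ophiopogonis Tuber, 77.1 ± 5.62 for Schisandrae Fructus, 68.5 ± 15.9 for Longan Arillus and 81.0 ± 3.83 for Zizyphi Semen, against 112.9 ± 2.91 in vehicle (n = 3 unless given). The widest spread, in Longan Arillus, came with 50.8 CPM in replicate 3. The gene overlaps the pseudogene RPL39P5 and MIR6827, so its count is uncertain to that extent.

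NUAK2, a kinase of the AMPK family and a known YAP target (chr1:205302059-205321791, - strand), was at 40.6 to 48.1 CPM, median 43.6, in the low-dose libraries, against 54.3, 57.2 and 58.1 CPM in vehicle, with no overlap. The log2 fold change was -0.36 ± 0.05, adjusted p = 2.7e-06, and -0.37 ± 0.04, adjusted p = 5.99e-09, in the fit of 52 libraries. Both AMOTL2 and NUAK2 were called lower in 16 of the 18 contrasts of an extract dose against vehicle.

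The secreted matricellular proteins CCN1 and CCN2 bind integrins and are widely used readouts of YAP and TEAD activity. CCN1 (CYR61 in GENCODE 29, chr1:85580761-85583962, + strand) was at 16.8 to 27.5 CPM, median 25.7, in the low-dose libraries, against 33.5, 34.2 and 36.1 CPM in vehicle. Its log2 fold change was -0.48 ± 0.08, adjusted p = 0.000159, and -0.45 ± 0.06, adjusted p = 1.13e-07, in the fit of 52 libraries. The lowest value was again in Longan Arillus replicate 3, and the next lowest was 21.1 CPM in Yijin-tang replicate 1. CCN2 (CTGF in GENCODE 29, chr6:131948176-131951373, - strand) was at 24.4 to 30.2 CPM, median 28.7, in the low-dose libraries, against 33.6, 35.4 and 35.7 CPM in vehicle. The log2 fold change was -0.31 ± 0.05, adjusted p = 0.00016, and -0.31 ± 0.04, adjusted p = 9.47e-07, in the fit of 52 libraries. Neither gene's low-dose libraries overlapped vehicle. CCN2 overlaps the antisense gene AL133346.1, and the strand setting of the counting is not given in the sources used here, so its count is uncertain.

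ANKRD1, an ankyrin repeat protein of muscle and of YAP-active cells (chr10:90912096-90921276, - strand), was the least abundant of the 10 in CPM. It was at 9.78 to 15.0 CPM, median 11.7, in the low-dose libraries, against 13.8, 15.7 and 16.1 CPM in vehicle. Longan Arillus low replicate 3, at 15.0 CPM, was the low-dose library that lay within the vehicle range, and the other 16 lay below it. The log2 fold change was -0.36 ± 0.07, adjusted p = 0.00393, and -0.38 ± 0.06, adjusted p = 2.99e-05, in the fit of 52 libraries. The call ended without vehicle replicate 1 (-0.34, adjusted p = 0.0751) and without vehicle replicate 3 (-0.32, adjusted p = 0.107).

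AXL, a receptor tyrosine kinase for GAS6 (chr19:41219203-41261766, + strand), was at 118.4 to 215.9 CPM, median 204.2, in the low-dose libraries, against 235.3, 237.2 and 245.8 CPM in vehicle. Its log2 fold change was -0.27 ± 0.07, adjusted p = 0.0238, and -0.24 ± 0.03, adjusted p = 1.41e-07, in the fit of 52 libraries. No low-dose library reached the vehicle range. In the fit of 54 libraries the call ended when vehicle replicate 1, 2 or 3 was left out, with log2 fold changes of -0.28, -0.29 and -0.25 and adjusted p = 0.125, 0.113 and 0.215, and with no filter on low counts (-0.29, adjusted p = 0.0777). It overlaps the antisense gene AC011510.1, so its count is uncertain. CRIM1, a membrane protein that binds bone morphogenetic proteins (chr2:36355926-36551135, + strand), had 384 to 577 CPM, median 541, in the low-dose libraries, against 523, 530 and 538 CPM in vehicle. Its low-dose libraries lay on both sides of vehicle, with 5 below and 10 above the vehicle range, and the log2 fold change was -0.004 ± 0.07, adjusted p = 0.995. The sign turned to 0.01 in the fit of 52 libraries. CRIM1 overlaps FEZ2 and an antisense gene, so its count is uncertain.

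**Figure D1:**
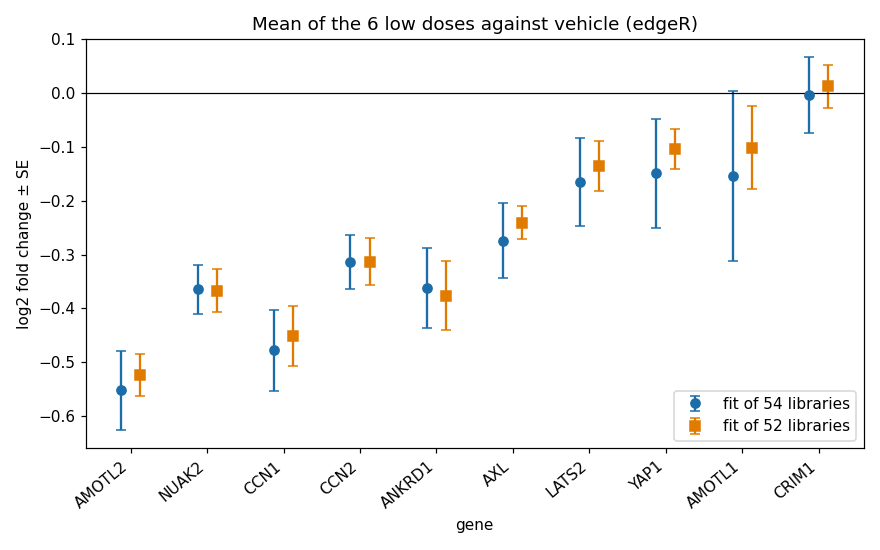
Log2 fold change (y axis) of the mean of the 6 low doses against vehicle for each of the 10 genes (x axis); points are edgeR estimates and bars their SE, in the fits of 54 (circles) and 52 (squares) libraries. AMOTL2 lies lowest at -0.55 and CRIM1 lies at about 0.

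YAP1 itself, LATS2 and AMOTL1 did not pass the test of the mean of the low doses in the fit of 54 libraries. YAP1 (chr11:102110461-102233423, + strand) had 33.3 to 90.1 CPM, median 84.9, in the low-dose libraries, against 87.6, 88.1 and 88.2 CPM in vehicle. The lowest value, 33.3 CPM, was in Longan Arillus replicate 3, and the next lowest was 70.3 CPM in replicate 2 of that group. The log2 fold change was -0.15 ± 0.10, adjusted p = 0.598, and -0.10 ± 0.04, adjusted p = 0.0491, in the fit of 52 libraries. LATS2, a kinase that inactivates YAP (chr13:20973032-21061547, - strand), had 18.01 to 35.86 CPM, median 32.9, in the low-dose libraries, against 35.1, 35.6 and 36.6 CPM in vehicle. Its log2 fold change was -0.17 ± 0.08, adjusted p = 0.388, and -0.14 ± 0.05, adjusted p = 0.0357, in the fit of 52 libraries. AMOTL1, the relative of AMOTL2 (chr11:94706431-94876753, + strand), had 9.79 to 33.8 CPM, median 28.9, in the low-dose libraries, against 29.8, 31.3 and 32.4 CPM in vehicle. Its values overlapped vehicle, and the log2 fold change was -0.15 ± 0.16, adjusted p = 0.77, and -0.10 ± 0.08, adjusted p = 0.43, in the fit of 52 libraries. All 3 of these genes overlap antisense genes, so their counts are uncertain.

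AMOTL1 has the longest exons of the 10, 10035 bases in GENCODE 29, and the libraries whose levels fell with length were its lowest. It had 13.02 CPM in Soshiho-tang medium replicate 3, against 33.8 CPM in replicate 2 of that group. It had 9.79 CPM in Longan Arillus low replicate 3, against 26.0 and 25.6 CPM in replicates 1 and 2. YAP1 had 58.9 and 84.3 CPM in Soshiho-tang medium replicates 3 and 2. Per kilobase of exon, CRIM1 was the most abundant of the 10 in vehicle at 74.5 CPM per kb and AXL the next at 46.5. AMOTL2 (18.9), NUAK2 (16.4), CCN2 (14.9), CCN1 (14.1) and YAP1 (13.97) followed, then ANKRD1 (7.68), LATS2 (6.40) and AMOTL1 (3.11).

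The promoters of CCN2, ANKRD1, NUAK2 and AMOTL2 are shown because TEAD factors bind the letters CATTCC. RefSeq sequences of GRCh38.p14, from 250 bases before to 50 after the start of a gene, were searched for CATTCC and its reverse complement GGAATG, and these spellings cannot overlap each other. They were at hand for 8 of the 10 genes, not for CCN1 and CRIM1, and 7 of these 8 had a promoter with a match. CCN2 had 3 matches, beginning at positions -169, -104 and -95 from the start, ANKRD1 had 2, and NUAK2 had 2. YAP1, LATS2, AXL and AMOTL2 had 1 each, the last 2 in 1 of their 2 listed promoters, and AMOTL1 had none. Counted per promoter, 7 of the 10 listed promoters of these 8 genes held a match. Of all 35116 promoters in the table, 14% held at least 1 match, 1.4% at least 2 and 0.128% at least 3. The 250 bases before the start are given 5′ to 3′ on the gene's strand, with the matches in capitals. For AMOTL2 the listed promoter with the match is printed and the other is not. Those of AXL, YAP1, LATS2 and AMOTL1 are not printed.

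CCN2 promoter (chr6:131951373-131951622, - strand): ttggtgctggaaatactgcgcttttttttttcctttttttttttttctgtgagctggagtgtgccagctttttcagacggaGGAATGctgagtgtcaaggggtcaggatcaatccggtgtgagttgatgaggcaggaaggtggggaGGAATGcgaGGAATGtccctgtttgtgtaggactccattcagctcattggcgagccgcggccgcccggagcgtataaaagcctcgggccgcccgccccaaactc

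ANKRD1 promoter (chr10:90921088-90921337, - strand): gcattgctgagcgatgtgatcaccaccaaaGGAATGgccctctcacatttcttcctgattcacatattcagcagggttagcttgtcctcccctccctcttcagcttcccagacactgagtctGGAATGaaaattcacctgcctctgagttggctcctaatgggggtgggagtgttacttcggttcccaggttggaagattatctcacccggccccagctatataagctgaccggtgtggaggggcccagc

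NUAK2 promoter (chr1:205321746-205321995, - strand): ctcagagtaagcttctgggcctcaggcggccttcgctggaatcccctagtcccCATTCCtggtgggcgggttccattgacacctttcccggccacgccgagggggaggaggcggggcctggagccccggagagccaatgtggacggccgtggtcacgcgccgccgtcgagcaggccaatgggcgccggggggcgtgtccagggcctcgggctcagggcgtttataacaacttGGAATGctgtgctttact

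AMOTL2 promoter (chr3:134374448-134374697, - strand): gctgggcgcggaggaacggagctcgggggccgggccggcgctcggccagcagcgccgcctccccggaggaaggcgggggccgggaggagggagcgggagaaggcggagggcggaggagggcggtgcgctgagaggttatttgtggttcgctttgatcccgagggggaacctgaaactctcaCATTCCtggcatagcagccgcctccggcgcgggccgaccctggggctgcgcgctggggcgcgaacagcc

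A match describes these letters and is not a measured binding site. CCN2, with 3 matches, had a mean log2 fold change of -0.31 at the low doses and AMOTL2, with 1, had -0.55. LATS2 and YAP1, with 1 match each, did not pass the test of that mean in the fit of 54 libraries. Whether the matches bear on the levels was not tested.

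Calls below vehicle were also made at the medium and high doses. Over 10 genes and 6 extracts, the low dose gave 25 of 60 gene and extract pairs that were called lower, where 2.9% of all such pairs over the genes tested were. Of these 25, 8 were in Longan Arillus, whose low dose holds 1 library with levels falling with gene length, and 6 in Zizyphi Semen. Yijin-tang and Schisandrae Fructus had 4 each, Liriopis seu Ophiopogonis Tuber 2 and Soshiho-tang 1. The calls of YAP1, LATS2 and AMOTL1 were in Longan Arillus alone. In the fit of 52 libraries Longan Arillus and Zizyphi Semen had 8 each and the other 4 extracts 6 each. At the medium dose 20 of 60 pairs were called lower, where 0.783% of all pairs were, and at the high dose 20 of 60, where 0.873% were. None of the 180 pairs was called higher, where 4.19%, 1.04% and 1.12% of all pairs were at the low, medium and high dose. None was higher at an unadjusted p under 0.05 and DESeq2 called 0 higher. In the fit of 52 libraries 40, 34 and 40 of 60 pairs were lower, where 6.52%, 5.37% and 7.69% of all pairs were, and again none was higher, where 4.93%, 4.18% and 5.82% were. These contrasts share the 3 vehicle libraries and are not independent of each other. Without vehicle replicate 2 the count at the low dose was 16, and without vehicle replicate 3 the counts at the low and medium doses were 14 and 13.

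Over all 57 extract libraries, AMOTL2, NUAK2 and AXL lay below the vehicle range in every library, at 50.8 to 102.9, 33.4 to 51.01 and 63.1 to 228.1 CPM. Of all genes tested, 0.275% did so. CCN1 lay below it in 56 of 57, with the high dose of Aucklandiae Radix inside the range at 34.1 CPM. ANKRD1 lay below it in 56 of 57 as well. CCN2 lay below it in 55 of 57, with Soshiho-tang medium replicate 3 inside it at 35.4 CPM and Soshiho-tang high replicate 3 above it at 36.4 CPM. YAP1 was below the vehicle range in 50 and above it in 5 of the 57, and LATS2 in 49 and 4. AMOTL1 was below in 28 and above in 6, and CRIM1 below in 23 and above in 24. The vehicle range of YAP1 was narrow, at 87.6 to 88.2 CPM.

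**Figure D2:**
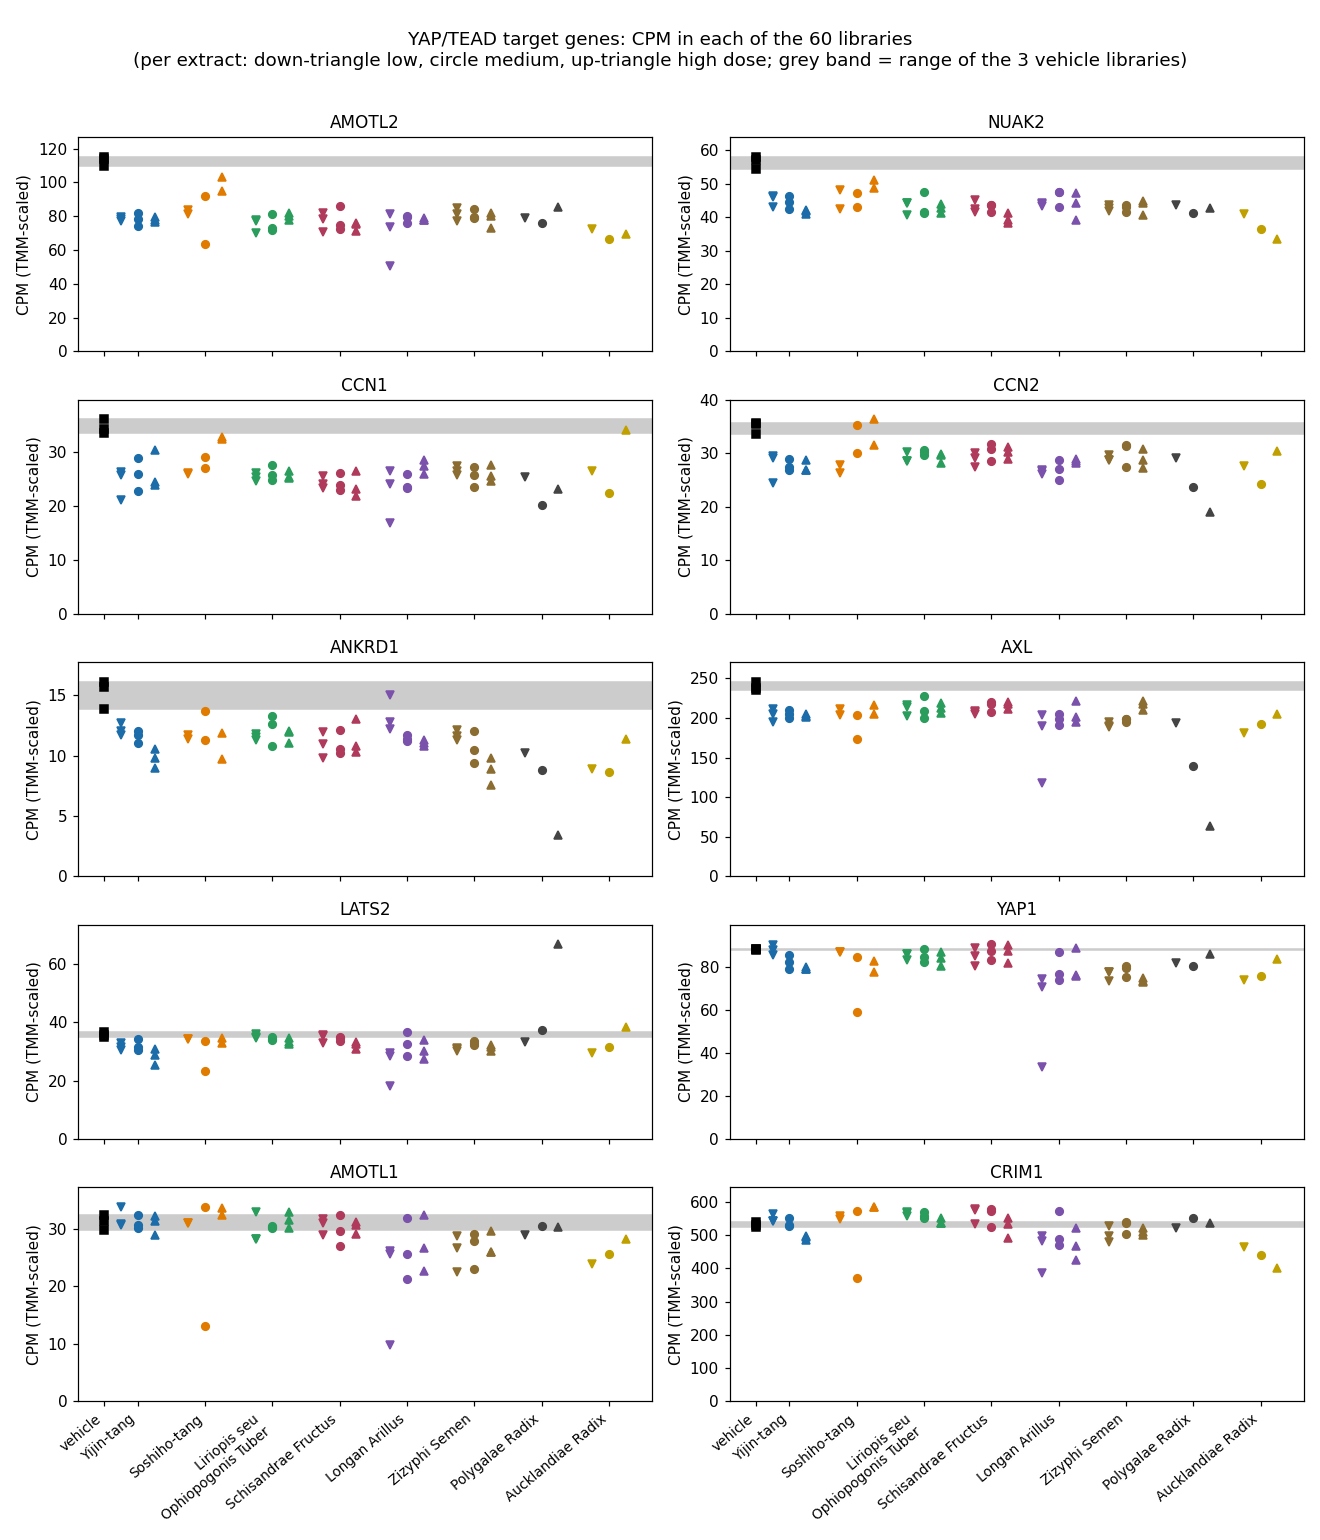
CPM (y axis, TMM-scaled) of each of the 10 genes in every library, grouped on the x axis by vehicle and by extract; each point is 1 library, the marker gives the dose and the grey band is the range of the 3 vehicle libraries. AMOTL2, NUAK2 and AXL lie below the band in all 57 extract libraries, and the 10 genes differ in how their levels move with dose.

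The 6 genes that fell were not shown to differ between extracts at the low dose. The F test among the 6 low doses, which does not use vehicle, called none of AMOTL2, CCN1, CCN2, NUAK2, ANKRD1 and AXL, with adjusted p between 0.084 and 0.787. This does not show that the low doses act alike. It called YAP1 (adjusted p = 0.0134), LATS2 (0.0121) and CRIM1 (0.0436), 3 of the 10 genes, where 24.1% of all genes were called, so the share is near the background. In the fit of 52 libraries the same 3 genes were called, with adjusted p = 0.000286, 0.00652 and 0.0122, where 19.8% of all genes were.

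For YAP1 and CRIM1 the low-dose libraries of set 10 lay below those of sets 8 and 9, and for LATS2 Zizyphi Semen overlapped Yijin-tang. YAP1 at the low dose was at 74.3, 70.3 and 33.3 CPM in Longan Arillus and 77.4, 77.7 and 73.1 CPM in Zizyphi Semen. It was at 80.5 to 90.1 CPM in the 11 low-dose libraries of the other 4 extracts, against 87.6 to 88.2 CPM in vehicle. LATS2 was at 29.5, 28.5 and 18.01 CPM in Longan Arillus and 31.31, 31 and 30.15 CPM in Zizyphi Semen, and at 30.6 to 35.9 CPM in the low doses of sets 8 and 9. CRIM1 was at 481.9, 495.7 and 384.4 CPM in Longan Arillus and 527.7, 478.6 and 496.4 CPM in Zizyphi Semen, and at 533.3 to 577.1 CPM in sets 8 and 9. Extract and set cannot be told apart here. The slopes of level on gene length also differed. They were -0.4701 in Longan Arillus low replicate 3 and -0.0584 to -0.0237 in the other low-dose libraries of set 10. In the low-dose libraries of sets 8 and 9 they were -0.0147 to 0.0389. The part of these slopes in the levels was not tested.

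Within the extracts, a rise of the dose from low to high, a 25-fold step, gave few calls among the 10 genes. Of 60 pairs, 3 were called higher at the high than at the low dose, where 0.847% of all pairs were, and none was called lower, where 2.57% were. By the same test at an unadjusted p under 0.05, 3 pairs were lower, and DESeq2 called 0 lower. In the fit of 52 libraries 4 pairs were higher, where 1.14% of all pairs were, and 1 was lower, where 1.07% were. The F test of whether the high minus low difference differs among the 6 extracts, added after seeing the data, called none of the 10 genes, where 0.69% of all genes were called. Its lowest adjusted p was 0.277, for ANKRD1, 2 of the 10 had an unadjusted p under 0.05, and the fit of 52 libraries called none as well (lowest adjusted p = 0.0692), where 5.52% of all genes were called.

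In Soshiho-tang CCN2 was higher at the high than at the low dose. It had 26.3 and 27.8 CPM at the low dose, 30.1 and 35.4 at the medium dose and 31.5 and 36.4 at the high dose, against 33.6 to 35.7 in vehicle. From low to high its log2 fold change was 0.33 ± 0.08, adjusted p = 0.0236, and 0.33 ± 0.07, adjusted p = 0.00194, in the fit of 52 libraries. Its 2 high-dose libraries lay above its 2 low-dose libraries, and the share of all genes that did so was not counted. Leaving out low replicate 2, low replicate 3 or high replicate 3 ended the call, with log2 fold changes of 0.29, 0.37 and 0.22 and adjusted p = 0.409, 0.107 and 0.615. The call also ended with no filter on low counts (0.33, adjusted p = 0.26) and with its set fitted alone with vehicle (0.33, adjusted p = 0.184).

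CCN1 in Soshiho-tang had 26.1 and 25.8 CPM at the low dose, 26.98 and 29.02 at the medium dose and 32.7 and 32.4 at the high dose. Its change from low to high was 0.33 ± 0.13, adjusted p = 0.293, and 0.32 ± 0.10, adjusted p = 0.0213, in the fit of 52 libraries. AMOTL2 had 81.1 and 83.4 CPM at the low dose, 91.8 and 63.7 at the medium dose and 102.9 and 95.1 at the high dose. The 63.7 CPM belonged to replicate 3, the library whose levels fell with gene length. The change of AMOTL2 from low to high was 0.27 ± 0.12, adjusted p = 0.466, and 0.27 ± 0.07, adjusted p = 0.00452, in the fit of 52 libraries. At the high dose of Soshiho-tang, AMOTL2 differed from vehicle by -0.19 ± 0.11, adjusted p = 0.461, and was called lower in the fit of 52 libraries (-0.19 ± 0.06, adjusted p = 0.0157). CCN1 differed by -0.09 ± 0.11, adjusted p = 0.831, and CCN2 by -0.04 ± 0.07, adjusted p = 0.907. ANKRD1 was not called between doses (-0.09 ± 0.12, adjusted p = 1.0): its values were 11.4 and 11.7 CPM at the low dose, 11.3 and 13.7 at the medium and 11.9 and 9.74 at the high dose. Against vehicle it was still called lower at the high dose, by -0.49 ± 0.11, adjusted p = 0.00525.

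In Zizyphi Semen, ANKRD1 was lower and AXL higher at the high than at the low dose by the fit of 52 libraries, and neither passed in the fit of 54. ANKRD1 had 12.1, 11.6 and 11.3 CPM at the low dose, 9.40, 10.4 and 12.1 at the medium dose and 9.80, 8.86 and 7.60 at the high dose, with 7.60 CPM the lowest value of any replicated extract. From low to high it changed by -0.415 ± 0.10, adjusted p = 0.281, and by -0.41 ± 0.10, adjusted p = 0.0141, in the fit of 52 libraries. AXL had 195.1, 189.6 and 188.1 CPM at the low dose, 198.8, 194.7 and 198.7 at the medium dose and 218.0, 221.9 and 210.3 at the high dose. It changed by 0.18 ± 0.09, adjusted p = 1.0, and by 0.18 ± 0.04, adjusted p = 0.00898, in the fit of 52 libraries. In both genes the 3 high-dose libraries lay apart from the 3 low-dose libraries, and the share of all genes that did so was not counted. In Yijin-tang ANKRD1 likewise had 9.76, 10.6 and 8.98 CPM at the high dose, against 12.03, 11.67 and 12.72 CPM at the low dose. That difference of -0.31 ± 0.10 missed the threshold in both fits (adjusted p = 0.631, and 0.122 in the fit of 52 libraries).

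In Longan Arillus the calls with dose, for YAP1 and AXL in the fit of 54 libraries, ended when single libraries were left out. YAP1 had 74.3, 70.3 and 33.3 CPM at the low dose, 87.0, 73.9 and 76.5 at the medium dose and 88.6, 76.3 and 75.8 at the high dose. Its change from low to high of 0.43 ± 0.14, adjusted p = 0.0255, was 0.15, adjusted p = 0.818, without low replicate 3. AXL had 203.9, 189.8 and 118.4 CPM at the low dose, 205.3, 198.6 and 191.2 at the medium dose and 221.9, 200.6 and 195.2 at the high dose. Its change of 0.27 ± 0.09, adjusted p = 0.0393, was 0.06, adjusted p = 0.926, without low replicate 3. Without high replicate 1 the changes were 0.36, adjusted p = 0.123, for YAP1 and 0.21, adjusted p = 0.174, for AXL. Without high replicate 2 or 3 the change of AXL was 0.28 or 0.30, adjusted p = 0.0653 or 0.0503. With no filter on low counts the changes were 0.45, adjusted p = 0.0519, for YAP1 and 0.30, adjusted p = 0.0827, for AXL, and with the set fitted alone with vehicle 0.43, adjusted p = 0.192, and 0.27, adjusted p = 0.214. Replicate 1 had the highest YAP1 and AMOTL1 values at the medium and the high dose: AMOTL1 had 31.8, 25.6 and 21.2 CPM at the medium and 32.4, 26.7 and 22.6 CPM at the high dose. In Liriopis seu Ophiopogonis Tuber and Schisandrae Fructus none of the 10 genes was called between doses in either fit.

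**Figure D3:**
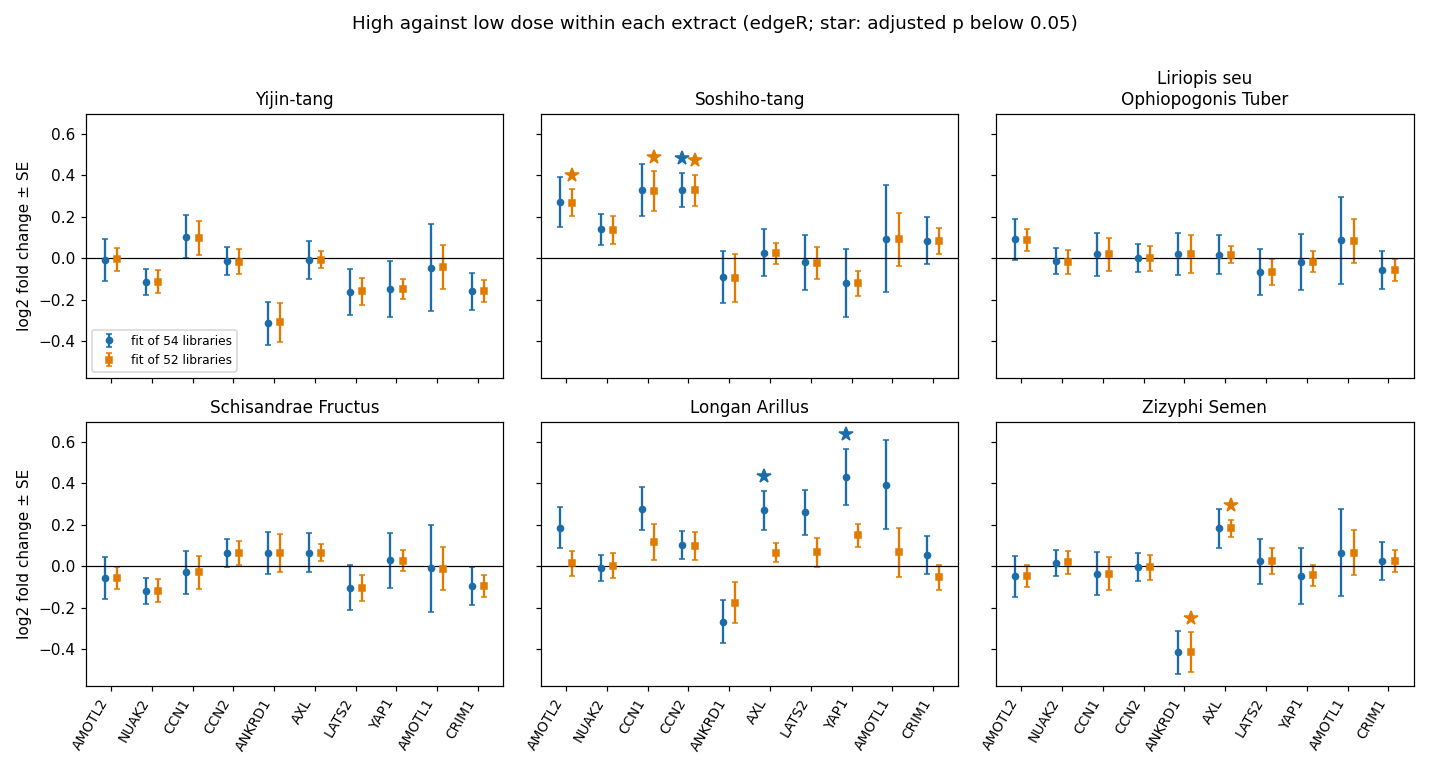
Log2 fold change (y axis) of the high against the low dose for the 10 genes (x axis) in each of the 6 replicated extracts; points are edgeR estimates in the fits of 54 (circles) and 52 (squares) libraries, bars are SE and stars mark an adjusted p below 0.05. CCN2 in Soshiho-tang (0.33) is starred in both fits, and the stars of Longan Arillus stand in the fit of 54 libraries alone.

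Polygalae Radix, with 1 library per dose and no test, had the lowest levels of ANKRD1 and AXL in the series. AXL was at 193.0, 139.0 and 63.1 CPM from low to high dose, against a vehicle mean of 239.5 CPM. ANKRD1 was at 10.2, 8.82 and 3.45 CPM, against 15.2 CPM in vehicle, and its high-dose value rests on 97 counts (95% Poisson interval 2.80 to 4.21 CPM). CCN2 was at 29.1, 23.8 and 18.98 CPM, against 34.9 CPM. These 3 genes went down with each dose step. CCN1 did not, at 25.4, 20.2 and 23.1 CPM, against 34.6 CPM in vehicle. AMOTL1 was at 28.9, 30.4 and 30.2 CPM, against 31.15 CPM, and CRIM1 at 522.0, 549.8 and 536.8 CPM, against 530.2 CPM. The TMM factor of the high-dose library was 1.24, against 1.007, 0.9995 and 0.9956 in vehicle. The log2 ratios of the high dose to the vehicle mean, with 1 CPM added, were -1.91 for AXL, -1.86 for ANKRD1 and -0.85 for CCN2.

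LATS2 went the other way in Polygalae Radix, at 33.4, 37.4 and 66.9 CPM from low to high dose, against 35.7 CPM in vehicle. The 66.9 CPM (Poisson interval 63.9 to 70.0 CPM) was the highest LATS2 value of the 60 libraries. AMOTL2 (78.7, 76.0 and 85.3 CPM) and NUAK2 (43.8, 41.2 and 42.7 CPM) stayed below their vehicle means of 112.9 and 56.5 CPM at each dose, and YAP1 was at 81.6, 80.1 and 86.0 CPM against 88.0 CPM. All 3 of these were lowest at the medium dose. At the high dose 8.15% of all genes were at least 2-fold lower than vehicle, as 2 of the 10 were, and 3.21% were at least 2-fold higher, as none of the 10 was. The summed epithelial markers of that library were at 1317 CPM, against 8400 to 8781 CPM in vehicle, and the fibroblast (21.4), endothelial (1.85), leukocyte (5.76) and smooth muscle (17.8 CPM) sums were the lowest of all extract libraries too. Their part in the values was not tested.

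Aucklandiae Radix, also with 1 library per dose, had less NUAK2 at each step, at 40.9, 36.5 and 33.4 CPM from low to high dose. CRIM1 did the same at 464.7, 439.9 and 400.9 CPM, against 530.2 CPM in vehicle. CCN1 was lowest at the medium dose, at 26.5, 22.3 and 34.1 CPM, and CCN2 (27.6, 24.2 and 30.4 CPM) and ANKRD1 (8.91, 8.67 and 11.4 CPM) had the same order. AXL (181.0, 192.5 and 204.7 CPM), LATS2 (29.6, 31.5 and 38.5 CPM), YAP1 (73.9, 75.8 and 83.5 CPM) and AMOTL1 (23.9, 25.6 and 28.3 CPM) went up at each step. At the high dose the Poisson interval of CCN1, 31.6 to 36.6 CPM, held the vehicle mean of 34.6 CPM. Intervals cover counting error only.

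**Figure D4:**
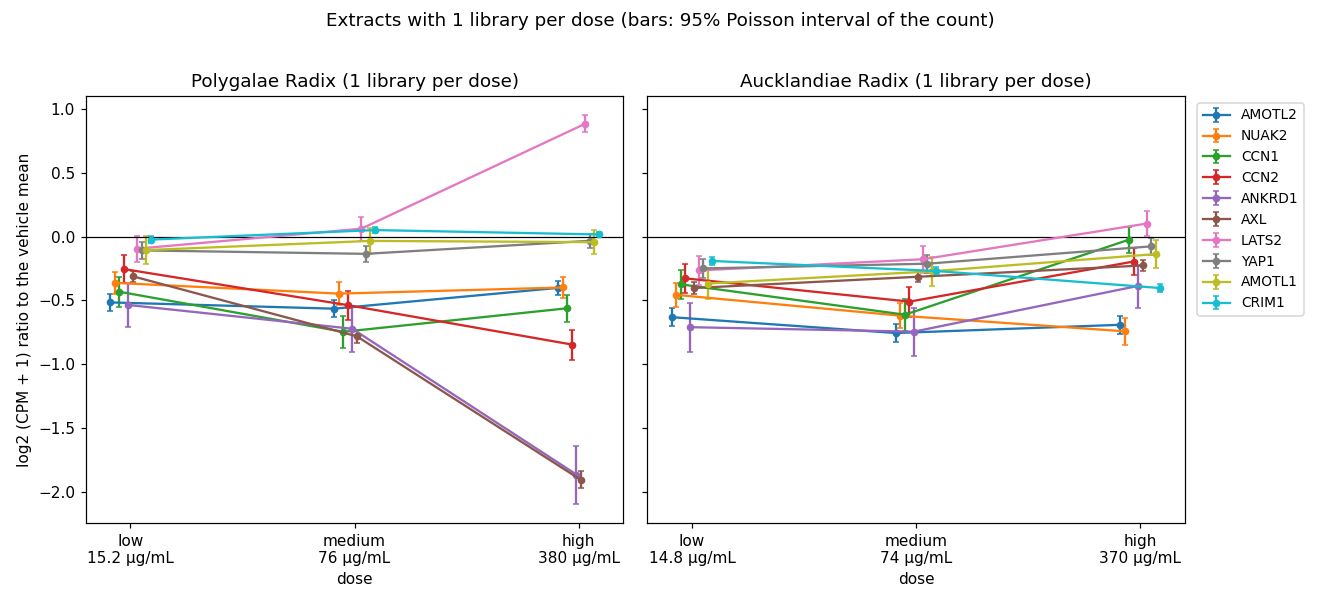
Log2 ratio of CPM (1 CPM added) to the vehicle mean (y axis) at the low, medium and high dose (x axis) of Polygalae Radix and Aucklandiae Radix; each point is 1 library, lines join doses and bars are 95% Poisson intervals. AXL and ANKRD1 drop to about -1.9 and LATS2 lies highest at the high dose of Polygalae Radix.

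Other genes of the pathway were counted in the same contrasts. The 10 genes and the lists were chosen with earlier results of these data known, so their shares are descriptions and test no pathway. Over the 18 contrasts against vehicle, 65 of 180 pairs of the 10 genes were lower and none higher, with a median log2 fold change of -0.26, against 1.52% lower and 2.12% higher over all genes with a median of 0.001. Of 21 other YAP and TEAD targets tested, 25 of 378 pairs were lower (6.61%) and 8 higher, with a median of 0.008. The Hippo list gave 25 lower and 7 higher of 378 pairs, the YAP partners and TEAD factors 3 and 0 of 126, the SRF and MRTF targets 6 and 4 of 288 and the immediate early genes 11 and 10 of 180. Low-dose Longan Arillus, with its library of levels falling with gene length, held 11 lower and 4 higher Hippo pairs (11 and 3 in the fit of 52). It held all 3 lower pairs of the YAP partners and TEAD factors. The other targets had 4 lower and 4 higher there, and the SRF and MRTF targets and immediate early genes 3 and 2 each. The 10 genes gave, in the fit of 52 libraries, 114 lower and 0 higher of 180 pairs, where 6.53% of all pairs were lower and 4.97% higher. The other YAP and TEAD targets gave 62 lower and 39 higher, the Hippo list 70 and 36, the YAP partners and TEAD factors 10 and 13, the SRF and MRTF targets 71 (24.7%) and 4 and the immediate early genes 28 and 22. In the mean of the low doses 2 of the 21 were lower and 1 higher, where 1.09% and 1.14% of all genes were. The fit of 52 libraries called 5 lower and 3 higher, where 9.78% and 7.03% of all genes were. AJUBA, a LIM protein that binds LATS kinases, was at 62.1 to 92.5 CPM in the low-dose libraries, against 106.7 ± 4.91 CPM in vehicle, and changed by -0.38 ± 0.04, adjusted p = 3.06e-07. TNFRSF12A, the receptor of the cytokine TWEAK, was at 53.5 to 63.7 CPM, against 73.0 ± 1.29 CPM in vehicle, and changed by -0.33 ± 0.06, adjusted p = 0.000997. NT5E, an enzyme that makes adenosine, was at 33.9 to 40.3 CPM, against 32.2 ± 1.65 CPM in vehicle, and was called higher (0.18 ± 0.05, adjusted p = 0.0329). It is named after its values were seen. FOXF2 (0.18 ± 0.06, adjusted p = 0.144) and PTPN14 (-0.24 ± 0.19, adjusted p = 0.678) did not pass the test in the mean of the low doses in the fit of 54 libraries. Both were called in the fit of 52, FOXF2 higher (0.19 ± 0.06, adjusted p = 0.0295) and PTPN14 lower (-0.38 ± 0.11, adjusted p = 0.0181).

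Of 22 genes of the Hippo kinase cascade and its upstream regulators, 21 were tested, and 1 was lower and 1 higher in the mean of the low doses. The fit of 52 libraries called 4 lower and 3 higher, where 9.78% and 7.03% of all genes were. NF2, the scaffold merlin, which activates the LATS kinases, was at 39.5 to 50.3 CPM, against 51.4 ± 2.46 CPM in vehicle (-0.24 ± 0.05, adjusted p = 0.0031). STK3, a kinase that acts upstream of LATS, was at 25.4 to 31.5 CPM, against 23.4 ± 1.33 CPM in vehicle (0.21 ± 0.05, adjusted p = 0.0166). LIMD1 (-0.16 ± 0.05, adjusted p = 0.138) and TAOK1 (-0.35 ± 0.19, adjusted p = 0.467) did not pass in that mean in the fit of 54 libraries. LIMD1 was called lower in the fit of 52 (-0.19 ± 0.03, adjusted p = 2.84e-05) and TAOK1 was not (-0.30 ± 0.14, adjusted p = 0.157). None of 7 tested YAP partners and TEAD factors was called in the mean of the low doses in the fit of 54. VGLL4, a competitor of YAP for TEAD, differed by -0.17 ± 0.09, adjusted p = 0.473, TEAD1 by -0.21 ± 0.16, VGLL3 by -0.13 ± 0.18 and TEAD3 by 0.21 ± 0.11. By an unadjusted p under 0.05 1 of the 7 differed, the fit of 52 libraries called 2 higher (TEAD3 and WWTR1) and 1 lower (VGLL4), where 7.03% and 9.78% of all genes were, and DESeq2 was not run on the lists.

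The targets of SRF and its coactivator MRTF share cytoskeletal control with YAP. In the mean of the low doses none of 16 tested was called in the fit of 54 libraries, and their median was -0.07. ACTG1 differed by -0.13 ± 0.04, adjusted p = 0.0646, CNN2 by -0.18 ± 0.07, TGFB1I1 by 0.06 ± 0.06 and CNN1, at 0.422 CPM in vehicle, by -0.49 ± 0.29. The unadjusted p was under 0.05 for 2 of the 16, and the fit of 52 libraries called 5 lower and 0 higher, where 9.78% and 7.03% of all genes were, among them ACTG1 (-0.145 ± 0.02, adjusted p = 1.02e-07). Of 12 immediate early genes 10 were tested and DUSP1, a phosphatase of MAP kinases, was called lower in that mean. It was at 74.8 to 97.03 CPM, against 105.7 ± 2.50 CPM in vehicle (-0.27 ± 0.06, adjusted p = 0.00446). JUNB (0.18 ± 0.08, adjusted p = 0.28), JUN (-0.18 ± 0.07, adjusted p = 0.228) and EGR1 (-0.38 ± 0.17, adjusted p = 0.288) did not pass in that mean in the fit of 54 libraries. The fit of 52 called 2 lower, DUSP1 (-0.28 ± 0.05, adjusted p = 2.66e-05) and FOSL1 (-0.17 ± 0.05, adjusted p = 0.00856). It called 2 higher, JUNB (0.14 ± 0.04, adjusted p = 0.015) and FOS (0.45 ± 0.10, adjusted p = 0.00118), where 9.78% of all genes were lower and 7.03% higher. JUN (adjusted p = 0.0568) and EGR1 (0.135) did not pass there either. WWTR1, FOSL1 and FOS are named after their values were seen. At the high dose of Soshiho-tang 6 of the 10 immediate early genes were called higher than vehicle, where 1.12% of all pairs over the 6 extracts were. From its low to its high dose 4 were called higher, where 0.847% of all pairs were. The fit of 52 libraries called 9 in each, where 5.82% and 1.14% of all pairs were. Whether this bears on CCN2 in that extract was not tested.

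Across the 25 group means of log2(CPM + 0.5), the 10 genes did not form 1 pattern. AMOTL2 and NUAK2 had a Pearson r of 0.81, and 0.89 without the 3 groups that stood apart (Polygalae Radix high, Soshiho-tang medium and Longan Arillus low). CCN1 and CCN2 had 0.69, and 0.79 without them. ANKRD1 and AXL had 0.87, and 0.61 without them. LATS2 had -0.73 with ANKRD1 over 25 groups and 0.32 over 22. AMOTL1 and YAP1 had 0.88, and 0.73 without them. Groups of 1 set share that set and all share the library preparation, and the values are descriptions.

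Among 11011 genes tested with a mean of at least 5 CPM, the gene whose 25 group means were most like those of CCN1 was EPHA2 (r = 0.872, and 0.934 over 22 groups). BTG2, SESN1, SESN2 and AEN followed with 0.797, 0.788, 0.76 and 0.725. CCN2 was most like CTPS1 (0.895, and 0.806 over 22 groups), then TES, SLC16A3, PYGB and ECI2 (0.841 to 0.858, and 0.617 to 0.712). ANKRD1 was most like ATP6V1H (0.936, and 0.741 over 22 groups), then ATP6V1A, PPP2R1A, CAV1 and ANXA1 (0.929 to 0.932, and 0.657 to 0.732). None of the 10 genes was among the 5 most like CCN1, CCN2 or ANKRD1.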

How the data were processed

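RNA from A549 cells was sequenced as pairs of 100 bp reads after a strand-specific library preparation, per the labels' protocols. FastQC 0.11.9, Trim Galore 0.6.5, STAR 2.7.3a and RSEM 1.3.3 and the build GRCh38 are named in the submitters' processing notes. The authors deposited expected counts per gene, of which 10.48% were not whole. Neither the strand setting nor the annotation release is given in the sources used here, and names and positions come from GENCODE 29. Counts were rounded and tested with edgeR 4.0.16 (R 4.3.3; TMM, filterByExpr, robust quasi-likelihood F test, 1 coefficient per group) on 54 libraries of 19 groups, with a call at an adjusted p below 0.05. The SE of an edgeR log2 fold change is its absolute value divided by the square root of the F statistic, as edgeR itself gives none. Polygalae Radix and Aucklandiae Radix, with 1 library per dose, got CPM with exact 95% Poisson intervals. Named are all 10 genes, up to 4 genes of each pathway list called in the most of the 18 contrasts against vehicle, and the 5 genes most like CCN1, CCN2 and ANKRD1. The members and lists were chosen with earlier results of these data known. The lowest mean chi-square per gene between libraries of a group was 1.86, so none counted as a duplicate. Alternatives were RLE size factors, no filter, DESeq2 1.42.0, a replicate block, each set alone with vehicle, 0.5 CPM added in place of 1, and leaving out libraries.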

Additional observations from a re-analysis of the deposited data

Results flagged for a closer look

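At the low dose the level of 3 of the 10 genes differed between the 6 replicated extracts by a test of that difference. The adjusted p of edgeR's F test was 0.0134 for YAP1, 0.0121 for LATS2 and 0.0436 for CRIM1 in 54 libraries, and 0.000286, 0.00652 and 0.0122 in 52. The share of 3 in 10 is near that of all genes, 24.1% and 19.8%. Extract and set cannot be told apart in this test.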

How the results depend on the processing

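Without the 2 libraries that stand apart, 40, 34 and 40 pairs were lower than vehicle at the low, medium and high dose, against 25, 20 and 20 with them, and 1 pair, against 0, was lower at the high than at the low dose. The count of pairs higher at the high than at the low dose, 3, was 0 with no filter on low counts and 0 with each set fitted alone with vehicle. Fitted alone, the sets gave 19, 14 and 19 pairs lower than vehicle at the low, medium and high dose; among the contrasts of 1 gene in 1 extract called in 54 or 52 libraries, 35 calls ended there and 18 were gained. With no filter 17, 16 and 17 pairs were lower than vehicle, and among those contrasts and the mean of the low doses 19 calls ended and none was gained. The replicate block gave 30, 22 and 23 pairs lower than vehicle at the low, medium and high dose, 4 higher and 0 lower at the high than at the low dose. Same-numbered libraries of the high and low dose correlated at -0.3 to 0.35 in their deviations, and not every pair was over 0.1, so the unblocked fit is the one reported. Pairs with the medium dose reached 0.34 to 0.87 in Longan Arillus and 0.16 to 0.32 in Yijin-tang (high and medium) and 0.33 to 0.61 in Zizyphi Semen (medium and low). Leaving out 1 library gave 14 to 35 pairs at the low, 13 to 26 at the medium and 14 to 22 at the high dose, with the lowest count without vehicle replicate 3 each time, and 35 without Longan Arillus low replicate 3. It gave 1 (without Longan Arillus high replicate 1 or low replicate 3) to 7 (without Longan Arillus low replicate 2) pairs higher and 0 to 1 lower at the high than at the low dose. It gave 4 to 6 genes in the mean of the low doses, 1 (without Longan Arillus low replicate 3) to 5 (without Longan Arillus low replicate 2) genes that differ among low doses and 0 to 1 whose dose difference differs among extracts. The log2 fold change of CRIM1 in the mean of the low doses, -0.00352, was 0.00223 with RLE size factors, 0.00228 with DESeq2, 0.0131 without the 2 libraries and -0.0148 to 0.0133 with 1 library left out. DESeq2 was not run on the difference among high minus low differences. The causes were not tested.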
